A study of Mus musculus with 16 samples.

Results

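The genes described here are 10 genes of neuronal differentiation, namely STMN2, STMN3, STMN4, DCX, TUBB3, ELAVL3, ELAVL4, GAP43, CBLN4 and TMEM130, among 30854 target names on the array. They were matched by target name in the deposited intensity table, which held 17 probes for them. The set was chosen by measured values, since it was picked because CBLN4, STMN4 and TMEM130 were lower with BMP4 than without growth factors in co-cultures, so the values of that contrast are given as a description with no test. Of the 10 genes, 9 passed the filter on dim probes, and TUBB3 did not.

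Murine embryonic stem (ES) cells had been grown for 7 days on the PA6 line, which is made of stromal cells of mouse bone marrow, in serum-free medium, and PA6 cells had been grown alone in parallel. The co-cultures comprised 2 arrays in absence of growth factors (-GFs), 3 with FGF2 at 20 ng/ml and 2 with BMP4 at 10 ng/ml per the labels (the study's methods name a lower BMP4 dose), and there were 3 arrays of PA6 mono-cultures for each of these media. Per the labels the factor was given for 3 days, although another label field speaks of the whole culture. Per the methods of the study, the ES cells carried a green fluorescent reporter knocked in behind the τ promoter, which is that of MAPT, and all co-cultures share it. RNA of a co-culture came from ES-derived cells and PA6 cells together, each array from 1 well. The comparisons ask how the 2 factors changed neuronal genes while ES cells differentiated, and how much of each signal PA6 cells alone gave. On the arrays 37.3% to 47.0% of the probes were detected (detection p under 0.05 against negative control beads). Markers of the stromal list were present in every culture, with a summed level (log2 of the summed linear signal) of 16.28 to 16.84 on co-culture arrays and 17.99 to 18.44 on PA6 arrays.

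When a neural progenitor leaves the cell cycle it rebuilds its cytoskeleton to grow an axon, makes RNA-binding proteins that process neuronal transcripts, and then assembles synapses. Stathmins bind tubulin dimers and tune microtubule growth, doublecortin (DCX) steadies microtubules in migrating young neurons, and TUBB3 is the neuronal β-tubulin. ELAVL3 and ELAVL4 are neuronal RNA-binding proteins of the Hu family, GAP43 sits in the growth cone, CBLN4 is a secreted protein of the cerebellin family that links partners across the synapse, and TMEM130 is a membrane protein. BMP signals oppose the neural fate in the early embryo, and FGF signals take part in leaving pluripotency and in neural induction.

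Promoter sequences are shown for CBLN4 and TMEM130, which had low levels with BMP4, and for STMN3, whose window holds a motif that was searched. RefSeq promoters of assembly GRCm38.p6 matched 7 of the 10 members by symbol, all but STMN2, STMN4 and GAP43, with 11 entries in all. The 250 bases before the annotated start are given 5′ to 3′ on the strand of the gene, with a motif match in capitals.
CBLN4, chr2:172043467-172043716, minus strand: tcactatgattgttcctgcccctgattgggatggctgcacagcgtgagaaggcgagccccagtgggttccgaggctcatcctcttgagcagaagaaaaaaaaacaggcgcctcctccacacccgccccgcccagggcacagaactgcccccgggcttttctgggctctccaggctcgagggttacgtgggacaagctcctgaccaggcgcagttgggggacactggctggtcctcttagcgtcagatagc
TMEM130, chr5:144761579-144761828, minus strand: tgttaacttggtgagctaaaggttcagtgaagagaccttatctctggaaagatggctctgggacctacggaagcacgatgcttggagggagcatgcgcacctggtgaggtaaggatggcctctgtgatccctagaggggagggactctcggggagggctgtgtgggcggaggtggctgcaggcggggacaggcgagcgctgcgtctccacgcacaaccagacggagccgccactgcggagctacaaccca
STMN3, chr2:181314501-181314750, minus strand: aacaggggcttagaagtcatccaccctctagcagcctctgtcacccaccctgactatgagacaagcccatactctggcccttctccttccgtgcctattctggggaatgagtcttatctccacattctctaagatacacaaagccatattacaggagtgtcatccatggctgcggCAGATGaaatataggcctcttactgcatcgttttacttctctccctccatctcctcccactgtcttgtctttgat
The motifs searched, on both strands, were the E-boxes CAGCTG and CAGATG, letters that proneural factors are known to bind, and CAGCACC and GGACAGC, which are the left and right parts of the element bound by the repressor REST. The CBLN4 and TMEM130 windows held none of the 4. The STMN3 window held CAGATG 75 bases before the start. CAGCTG was found 43 bases before the start of ELAVL3, in a window of which 123 bases lie within the gene model of a longer transcript. Of the 4 ELAVL4 windows 2, which overlap, held both E-boxes, and another held CAGATG on the opposite strand. All of these lie wholly within the gene model (250 bases each). The remaining ELAVL4 window, with 28 bases inside the gene model, held no match. The TUBB3 window held CAGCACC on the opposite strand 121 bases before the start. Of all 32851 promoter windows of this length, 13.0% held CAGCTG, 14.4% CAGATG, 5.73% CAGCACC and 5.28% GGACAGC. A match is only a match of letters, and the absence of a match says nothing about a factor.

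All 9 measured members were lower on both BMP4 arrays than on both -GFs arrays of the co-cultures, with changes of -2.80 to -1.11 on the log2 scale and a median of -1.73, and the groups did not overlap for any of them. Of all 14829 genes tested, 23.3% were lower with no overlap and the median change was -0.0015; since this contrast chose the set, nothing is read from the count. With FGF2 the changes of the members from -GFs ran from -1.10 to 0.80. Of the 9 members 7 were lower with FGF2, beside 55.8% of all genes. The median change was -0.38, beside -0.057 for all genes. Levels are background-corrected, quantile-normalized log2 intensities, changes are differences of such levels, and errors of changes are standard errors (SE) of the limma fit to 7 co-culture arrays. In RNA of whole cultures, fewer cells of a type and less RNA per cell cannot be told apart.

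**Figure D1:**
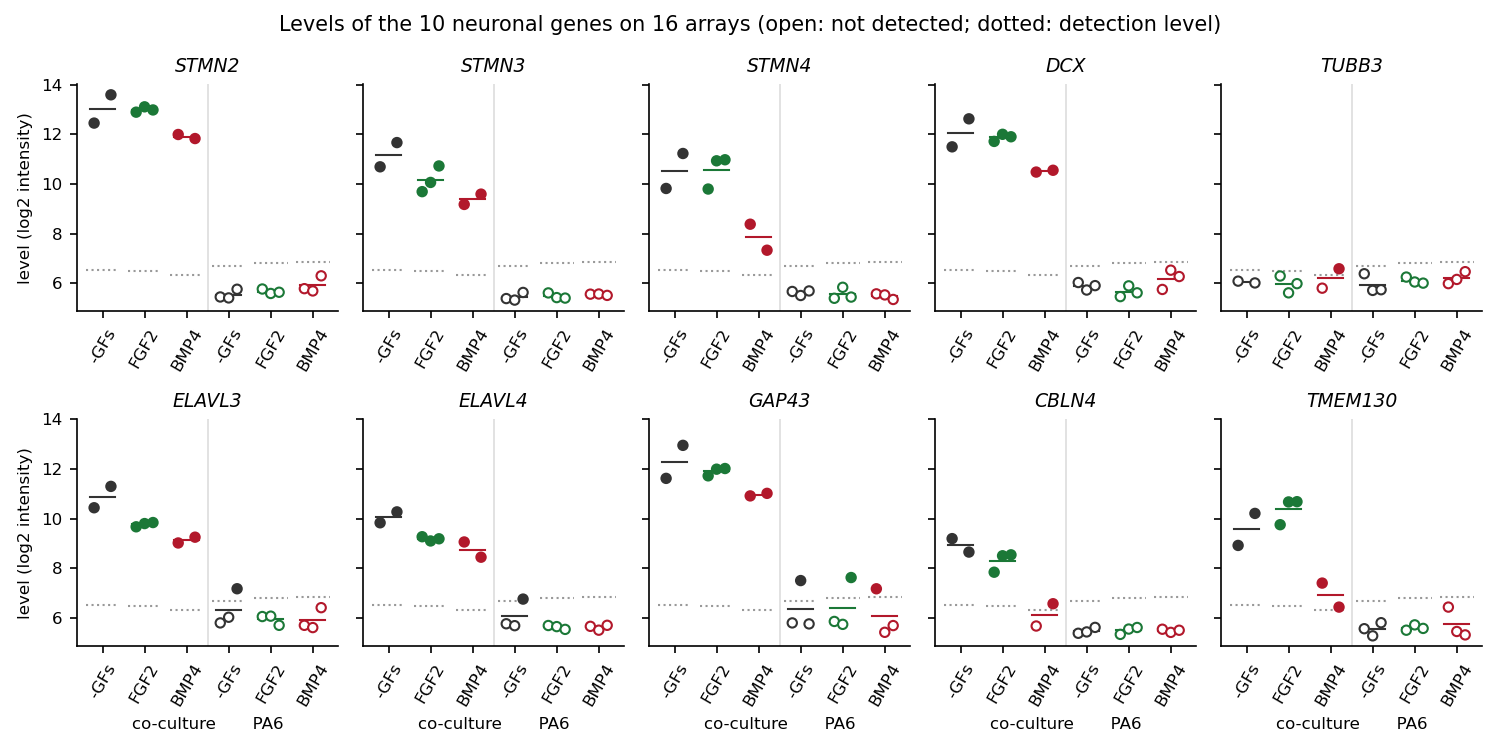
Level (log2 intensity) of each of the 10 genes on each of the 16 arrays, by group, with co-cultures left and PA6 right of the grey line. Filled points were detected, open points were not, bars are group means and dotted lines the mean detection level of each group. All genes but TUBB3 were detected on every -GFs and FGF2 co-culture array, and in PA6 most points are open.

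Among the stathmins, STMN4 differed most between BMP4 and -GFs. Its fall in this contrast helped to pick the set, so nothing is read from this order. STMN4 read 9.82 and 11.23 on the -GFs arrays, 9.80, 10.93 and 10.97 with FGF2, and 8.38 and 7.33 with BMP4. The BMP4 arrays were the lowest, and the -GFs and FGF2 groups overlapped. The change with BMP4 was -2.67 ± 0.61 (SE), which is 6.35-fold, and with FGF2 it was 0.04 ± 0.55. Its other retained probe gave 10.00 and 10.84 with -GFs, 9.69 to 10.62 with FGF2 and 8.16 and 7.12 with BMP4, so BMP4 was lowest on both probes.

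STMN2 read 12.45 and 13.59 with -GFs, 12.89, 13.11 and 12.98 with FGF2, and 11.99 and 11.83 with BMP4. The -GFs replicates thus spanned more than the FGF2 arrays, and only BMP4 lay apart, by -1.11 ± 0.35. STMN3 read 10.69 and 11.67 with -GFs, 9.69, 10.06 and 10.73 with FGF2, and 9.18 and 9.59 with BMP4. Its FGF2 mean was 10.16, with a change from -GFs of -1.02 ± 0.39 for FGF2 and -1.80 ± 0.43 for BMP4.

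DCX read 11.49 and 12.62 with -GFs, 11.71, 12.00 and 11.90 with FGF2, and 10.48 and 10.55 with BMP4. The FGF2 arrays fell within the span of the -GFs arrays, and BMP4 was lower by 1.54 ± 0.35 on the log2 scale. A further retained DCX probe read 10.96 and 12.28, 11.00 to 11.40, and 9.94 and 10.29 in the same groups, again with BMP4 lowest, and the remaining DCX probe was not detected on any array. TUBB3 had only 1 probe, which was detected on 1 of 16 arrays (BMP4 replicate 2 of the co-cultures, level 6.58) and read 5.61 to 6.58 over all arrays. It therefore gives no measure of TUBB3 in any group, neither a presence nor an absence of its RNA.

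For the RNA-binding proteins the FGF2 arrays lay wholly below the -GFs arrays. ELAVL3 read 10.44 and 11.31 with -GFs, 9.68, 9.81 and 9.85 with FGF2, and 9.03 and 9.26 with BMP4. The 3 groups did not overlap, in the order -GFs, FGF2, BMP4, and the changes from -GFs were -1.10 ± 0.27 for FGF2 and -1.73 ± 0.29 for BMP4. ELAVL4 gave the same order, with 9.84 and 10.28 for -GFs, 9.28, 9.11 and 9.19 for FGF2, and 9.07 and 8.45 for BMP4. Its BMP4 replicate 1 lay only just under the lowest FGF2 array, so those neighbouring groups are hardly apart. The change from -GFs was -0.87 ± 0.24 with FGF2 and -1.30 ± 0.26 with BMP4.

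The probes of ELAVL4 did not all behave alike. A second probe was dimmer but ordered similarly, at 7.34 and 8.33 with -GFs, 6.88, 6.89 and 7.98 with FGF2, and 6.78 and 6.68 with BMP4. The next was not detected on 1 of 2 -GFs arrays, read 7.23 and 7.30 with BMP4 and reached 8.51 on 1 PA6 array with BMP4, so it went against the others. The last was detected on 1 co-culture array and 1 PA6 array only. The brightest probe stands for the gene here, and the mean of the retained probes gave a change of -0.56 with BMP4. For ELAVL3 the other probe was not detected on any array.

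GAP43 read 11.63 and 12.96 with -GFs, 11.73, 12.00 and 12.02 with FGF2, and 10.92 and 11.02 with BMP4. As for DCX, the FGF2 arrays lay inside the -GFs span and the BMP4 arrays below it, with changes of -0.38 ± 0.36 and -1.32 ± 0.40.

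The synaptic and membrane members came closest to the detection level with BMP4. CBLN4 had a BMP4 mean of 6.13, under the detection level of both BMP4 arrays (6.39 and 6.30). TMEM130 had a BMP4 mean of 6.93, above both. CBLN4 read 9.20 and 8.66 with -GFs, 7.85, 8.51 and 8.55 with FGF2, and 5.68 and 6.58 with BMP4, where replicate 1 was not detected. Its fitted change with BMP4 was -2.80 ± 0.38, but the BMP4 mean lay under the detection level, so the size is not well measured. With FGF2 the change of CBLN4 was -0.63 ± 0.35. TMEM130 read 8.93 and 10.22 with -GFs, 9.76, 10.68 and 10.69 with FGF2, and 7.41 and 6.44 with BMP4. It was the only member other than STMN4 whose mean was higher with FGF2 than with -GFs, by 0.80 ± 0.49 (the small difference of STMN4 turned sign with median scaling), while BMP4 was lower by 2.65 ± 0.54. Within the BMP4 pair the order turned between genes, since replicate 2 was 0.90 above replicate 1 for CBLN4 and 0.97 below it for TMEM130.

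**Figure D2:**
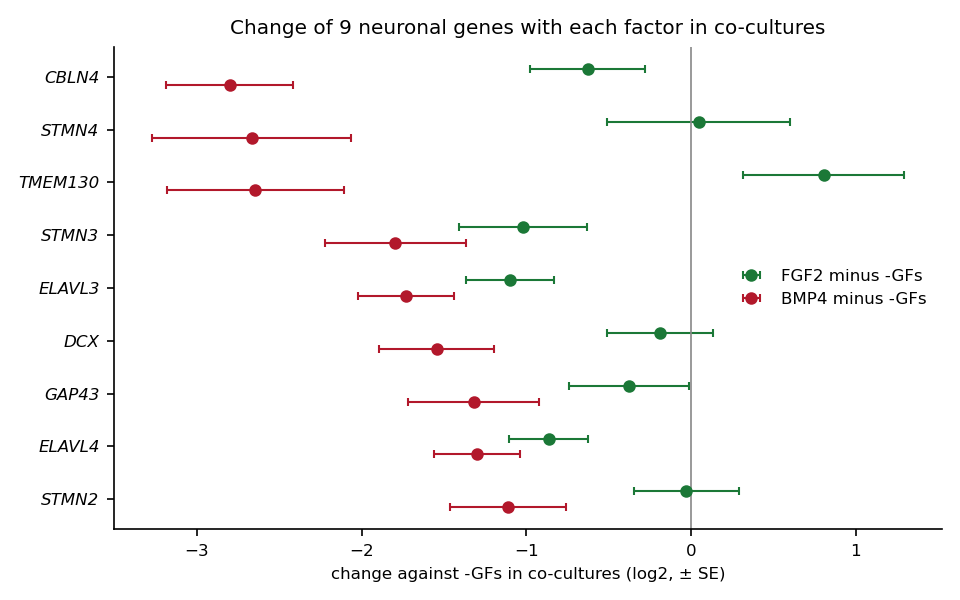
Fitted change against -GFs (log2, ± SE) for 9 members in co-cultures, with FGF2 in green and BMP4 in red. All BMP4 points lie at -1.11 or lower, while FGF2 points run from -1.10 for ELAVL3 to 0.80 for TMEM130.

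The size of these changes depended on which -GFs array was used. Replicate 2 was above replicate 1 for 8 of 9 members, by a median of 1.13, and by over 1 for 5 of them, where 3.39% of all genes were. CBLN4 went the other way, by -0.54. Set against replicate 1 alone, the change with BMP4 was -0.54 for STMN2, -0.65 for GAP43 and -0.98 for DCX, and set against replicate 2 it was -1.68, -1.98 and -2.11. For CBLN4 the same values were -3.07 and -2.53, measured against a BMP4 mean of 6.13 that lay under the detection level of both BMP4 arrays (6.39 and 6.30). The median change of the members was -1.30 without -GFs replicate 2 and -2.16 without -GFs replicate 1. Whatever set the -GFs arrays apart was not tested.

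In the test of FGF2 against -GFs, ELAVL3 fell and no other member was called. This comparison shares its -GFs arrays with the contrast that chose the set, so it is not independent of the choice. Genes counted as called had a limma p, adjusted over all genes by Benjamini-Hochberg, under 0.1 and a log2 change over 1 in size. The adjusted p was 0.0590 for ELAVL3, and called lower were 1 of 9 members and 2.35% of all genes. ELAVL4 had an adjusted p of 0.0852 with a change short of the fold limit, STMN3 one of 0.180, and TMEM130, whose mean was higher, one of 0.386. STMN2, STMN4, DCX, GAP43 and CBLN4 had adjusted p of 0.343 to 0.973. ELAVL3, ELAVL4 and CBLN4 were lower with no overlap of the groups, which 22.1% of all genes were. The ELAVL3 call was lost without -GFs replicate 2 (change -0.67, adjusted p 0.217), and without FGF2 replicate 1, 2 or 3 (adjusted p 0.125, 0.133 and 0.106).

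All 9 members were lower with BMP4 than with FGF2, and the arrays of the groups did not overlap for any of them, as for 14.6% of all genes. The BMP4 arrays chose the set, so this comparison is not independent either. TMEM130 fell by 3.45 ± 0.49 on the log2 scale (limma adjusted p 0.0455) and CBLN4 by 2.17 ± 0.35 (adjusted p 0.0640), so 2 of 9 members were called lower beside 0.688% of all genes. Both are among the 3 genes whose BMP4 values picked the set, so nothing is read from that count. The BMP4 mean of CBLN4 (6.13) lay under the detection level of both BMP4 arrays, so the size of its fall is not well measured. STMN4 changed by -2.71 ± 0.55 with an adjusted p of 0.101, DCX by -1.36 ± 0.32 with 0.131 and STMN2 by -1.08 ± 0.32 with 0.204. The smallest differences were those of ELAVL4 (-0.43, adjusted p 0.484) and ELAVL3 (-0.64, adjusted p 0.346). The CBLN4 call was lost without any 1 of the 5 arrays compared (adjusted p 0.102 to 0.187) and that of TMEM130 without FGF2 replicate 2 or 3 or BMP4 replicate 2 (adjusted p 0.145, 0.128 and 0.278). Without either -GFs array, which enters only the shared spread, 5 members were called.

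PA6 cells alone gave almost no signal for the members. CBLN4, STMN2, STMN3, STMN4, DCX and TMEM130 were undetected on all 9 PA6 arrays. With FGF2, where no array had a part in choosing the set, all 9 members were higher in co-cultures than in PA6 with no overlap, and all 9 were called higher beside 23.4% of all genes. The members had passed the filter on dim probes through the co-culture arrays, and none was detected on all 16 arrays, so the filter largely fixed this direction and nothing is read from the counts of this and the next paragraph. Against the detection level of the PA6 arrays STMN2 was at least 72.9-fold higher, DCX at least 33.5-fold, STMN4 at least 13.6-fold and TMEM130 at least 11.9-fold. STMN3 was at least 10.2-fold higher, ELAVL3 at least 7.85-fold, ELAVL4 at least 5.24-fold and CBLN4 at least 2.83-fold. These bounds set the mean of the bright group against the mean of the detection levels of the dim arrays. The detection level of an array is the lowest level detected on it. The bounds are thus lower limits for group means, not for single arrays, and do not rank the genes. GAP43 was detected on 1 of 3 PA6 arrays with FGF2, at 7.63, with the undetected ones at 5.87 and 5.75, beside 11.73 to 12.02 in co-cultures.

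The comparisons at -GFs and BMP4 share arrays with the choice of the set. At -GFs all 9 members were called higher in co-cultures (22.3% of all genes), with bounds of at least 80.5-fold for STMN2, 41.3-fold for DCX, 22.4-fold for STMN3 and 4.73-fold for CBLN4. With BMP4, 8 of 9 were called (22.0% of all genes). STMN2 was still at least 33.4-fold higher and DCX at least 12.7-fold, so both genes stayed far above the PA6 background. STMN4 was at least 2.01-fold higher, while TMEM130 was at least 1.05-fold higher, with 1 PA6 array at 6.44 level with its lower BMP4 co-culture array. CBLN4 changed by 0.63 ± 0.27 (limma adjusted p 0.0532) and was not called. Without BMP4 replicate 1 of the co-cultures, CBLN4 was called (1.08, adjusted p 0.00655) and TMEM130 was not (0.70, adjusted p 0.286). TMEM130 was also lost without PA6 BMP4 replicate 3 (0.97, adjusted p 0.0936).

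In PA6 mono-cultures neither factor gave a call for any member (lowest limma adjusted p 0.578 for FGF2 and 0.567 for BMP4), and no member had an unadjusted p under 0.05. Over all genes 4 were called with FGF2 (0.027%) and 0 with BMP4 (0%), where 1334 had an unadjusted p under 0.05. With most members undetected, these values say little about PA6 beyond the detection level. Among retained probes the exceptions were ELAVL3 at 7.18 and the brightest ELAVL4 probe at 6.77, detected on -GFs replicate 3 alone among PA6 arrays, the ELAVL4 probe that went against the others, detected on 1 FGF2 array at 7.11 and 1 BMP4 array at 8.51, and GAP43, detected at 7.51, 7.63 and 7.18 on 1 array of each group. The array of -GFs replicate 3 also had the highest summed level of pluripotency genes of the 9, 11.98 against 10.34 to 10.76, and the part of ES-derived RNA in this was not tested.

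Over the 7 co-culture arrays the 36 pairs of members correlated at 0.54 to 0.98 (Pearson, median 0.80). Group differences and the -GFs replicates feed these values, which describe these arrays only. The 10 other genes with the highest correlation to the mean scaled level of the members were RALGPS1 (0.992), SV2A, NCAN, GDAP1L1, SYT1, EPHB1, AW121567, CUGBP2, LOC381283 and A930009E05RIK (0.985). Of these, 7 were undetected on all PA6 arrays. NCAN, for example, was at 10.21 with -GFs, 9.57 with FGF2 and 8.31 with BMP4, and undetected on all 9 PA6 arrays. CUGBP2 stood apart, since it lay at 11.41 to 11.79 in the co-culture groups and higher, at 12.98 to 13.20, in PA6.

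**Figure D3:**
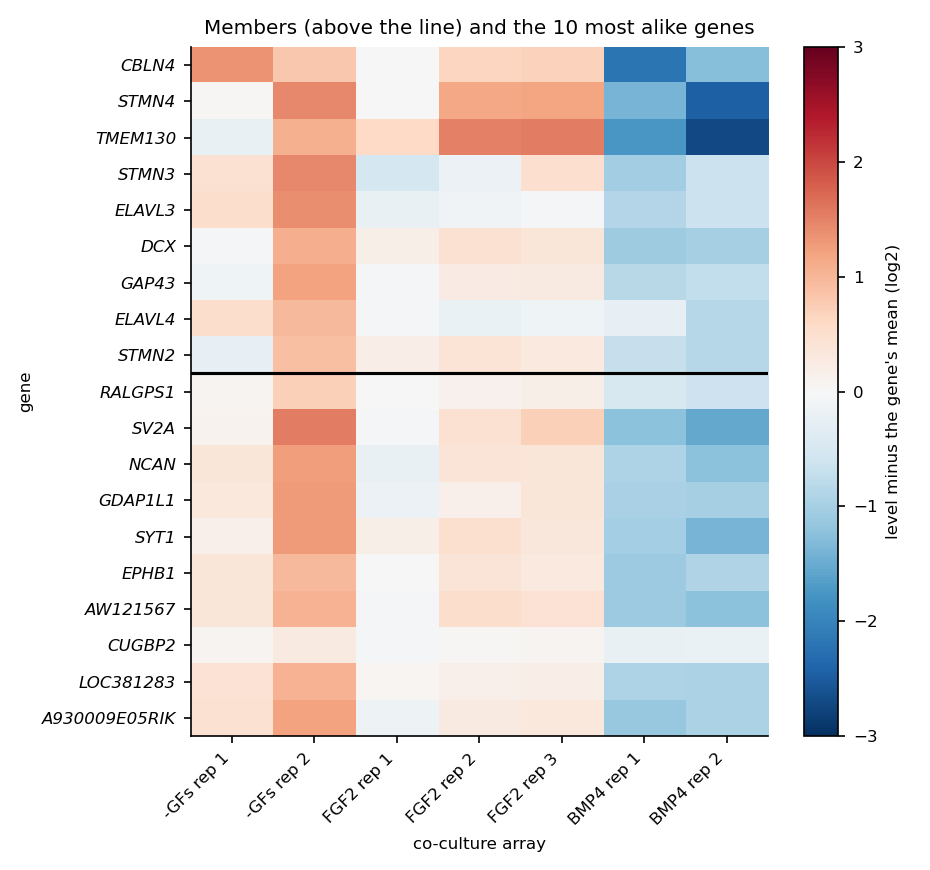
Level of each gene minus its mean over the 7 co-culture arrays (log2, colour), with 9 members above the line and the 10 genes of most similar pattern below. BMP4 arrays are low throughout, -GFs replicate 2 is high for all members, and CBLN4 is the member highest on -GFs replicate 1.

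Genes of neuronal lists other than the members were also lower with BMP4 than with -GFs. Of 15 neuronal cytoskeleton genes tested, 6 fell with BMP4 (1.47% of all genes were called lower). All 15 were lower with BMP4 (50.2% of all genes), with a median change of -1.40. All 15 were also lower with FGF2 (55.8% of all genes), with a median change of -0.43. MAPT, the microtubule protein tau whose promoter drove the reporter of the ES cells, fell by 2.49 ± 0.52 on the log2 scale (limma adjusted p 0.0680). The motor KIF1A fell by 1.56 ± 0.22 and the collapsin response mediator DPYSL5 fell by 1.53 ± 0.25. With FGF2 MAPT changed by -0.08 ± 0.47 (adjusted p 0.940), near the 0.04 of STMN4, whereas the neurofilament NEFM fell by 1.41 ± 0.22 and DPYSL5 fell by 1.39 ± 0.23, the 2 of 15 that were called. NEFM with BMP4 changed by -0.82 (adjusted p 0.166).

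Of 20 synaptic vesicle and release genes, 5 fell with BMP4 and none was called with FGF2, with medians of -1.19 and -0.20. The absence of FGF2 calls depended on the arrays used, since leaving out a single array could give calls. The vesicle protein SV2A was at least 4.08-fold lower with BMP4, where it was undetected, the calcium sensor SYT1 fell by 1.92 ± 0.36 and the complexin CPLX1 fell by 1.80 ± 0.29. Of 8 synapse organizers 3 fell with BMP4, none with FGF2. Among them the cerebellin CBLN1 fell by 2.21 ± 0.49 (limma adjusted p 0.0784), the cerebellin CBLN2 was at least 2.35-fold lower, and neurexin NRXN3 was at least 3.08-fold lower. The cerebellin CBLN3, also on the list, was not among the called genes. Of 17 axon guidance and adhesion genes 2 fell with BMP4, EPHB1 by 1.66 ± 0.26 and NRCAM by 1.54 ± 0.20. Of 5 RNA-binding proteins KHDRBS2 alone fell, by 1.24 ± 0.29.

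Of 6 transmitter phenotype genes tested, 3 were called lower with BMP4 than with FGF2, a count that was 0 to 2 with any 1 array left out and 0 without FGF2 replicate 2 or 3 or BMP4 replicate 2. The vesicular inhibitory transporter SLC32A1 fell by 2.67 ± 0.42 with BMP4 (limma adjusted p 0.0316) against -GFs and GAD1, which makes GABA, fell by 2.06 ± 0.46, the 2 genes called there. With any 1 array left out they were never called together. The vesicular glutamate transporter SLC17A6 changed by -1.76 with an adjusted p of 0.125. With FGF2 none fell and 2 rose, DDC by 1.12 ± 0.32, the decarboxylase of monoamine synthesis, and the serotonin enzyme TPH2, which was at least 1.96-fold higher. Against FGF2, GAD1 with BMP4 fell by 2.64 ± 0.42 (limma adjusted p 0.0633), SLC32A1 fell by 2.53 ± 0.38 (adjusted p 0.0572) and TPH2 was at least 2.24-fold lower.

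Of 20 neurogenic transcription factors all were lower with BMP4 (50.2% of all genes) and 18 with FGF2 (55.8% of all genes). The medians were -0.93 and -0.44. Called lower with BMP4 were 2, MYT1L by 2.04 ± 0.38 and MYT1 by 1.71 ± 0.35. With FGF2 the factors that fell were ONECUT2, by 2.12 ± 0.48, and ST18, by 1.11 ± 0.31, and MYT1L was not among them. Of 14 neural progenitor genes 4 fell with FGF2, among them the Notch target HES5 by 2.11 ± 0.18 and the intermediate filament NES by 1.29 ± 0.23, and 2 with BMP4, HES5 by 1.38 ± 0.19 and SOX21 by 1.29 ± 0.22. None of 7 genes of the REST repressor complex was called with either factor, with medians of -0.20 and -0.15.

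Other cell types moved alongside, and their part in the values of the members was not tested. All 11 pluripotency genes rose with FGF2 (5.07% of all genes were called higher), by a median of 2.77, and 5 rose with BMP4 (2.28% of all genes), by a median of 1.36. Their summed level was 13.93 and 14.08 with -GFs, 16.38 to 16.79 with FGF2, and 15.16 and 16.01 with BMP4. Of 9 epidermal genes 6 rose with BMP4, such as keratin KRT14, at least 109.6-fold, and TRP63, the p63 factor of surface epithelium, at least 20.3-fold. Of 8 endothelial genes PECAM1 and TEK rose with both factors. With BMP4 no endothelial gene was called without -GFs replicate 2 or BMP4 replicate 1 and 1 was without -GFs replicate 1 or FGF2 replicate 1 or 3, while with FGF2 there were 2 calls with any 1 array left out. No stromal gene of 16 was called with either factor, and of 9 glial genes OLIG1 alone was called, higher with FGF2. The OLIG1 call was not kept throughout when single arrays were left out.

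With 2 or 3 arrays a group the list counts were fragile for BMP4. Without BMP4 replicate 1 no gene of the cytoskeleton, RNA-binding, vesicle, organizer, transmitter, neurogenic or progenitor lists was called lower than with -GFs. Without -GFs replicate 2 there was 1 call each in the cytoskeleton and progenitor lists and none in the other lists just named. Without BMP4 replicate 1 the 5 pluripotency calls were also lost, as they were without -GFs replicate 1, and 1 of them was left without -GFs replicate 2. Without BMP4 replicate 2 the cytoskeleton and vesicle lists had 2 calls each, the progenitor list 1 and the RNA-binding, organizer, transmitter and neurogenic lists 0. The RNA-binding call was also lost without FGF2 replicate 1 or 2. Axon guidance genes had 1 to 4 calls and epidermal genes 4 to 6 with any 1 array left out. With FGF2, 9 to 11 of 11 pluripotency genes and 2 to 4 progenitor genes were called on leaving out any 1 array. DDC and TPH2 were not called without either -GFs array or without FGF2 replicate 1 or 2, and 1 of them was without FGF2 replicate 3. The neurogenic factors had 0 to 2 calls with FGF2, and 0 without -GFs replicate 2 or FGF2 replicate 1.

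**Figure D4:**
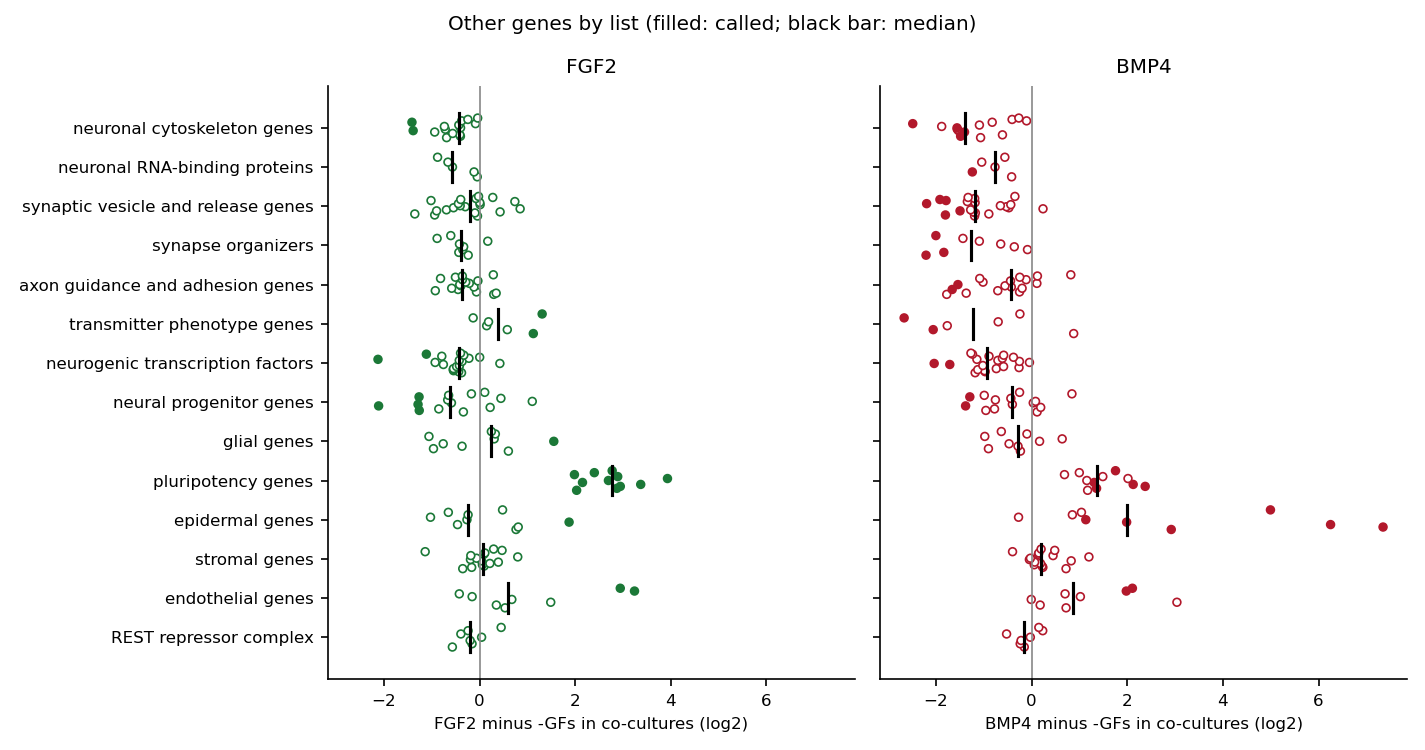
Change against -GFs (log2) of each tested gene of the 14 lists in co-cultures, with FGF2 in the left panel and BMP4 in the right panel. Filled points were called, open points were not, and black bars are medians. Cytoskeleton and vesicle genes lie further left with BMP4 (medians -1.40 and -1.19) than with FGF2 (-0.43 and -0.20). Axon guidance genes lie nearly alike (-0.44 with BMP4, -0.36 with FGF2), and progenitor genes lie further left with FGF2 (-0.62) than with BMP4 (-0.42). Pluripotency genes lie right in both panels.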

How the data were processed

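Total RNA of 16 cultures had been hybridized to Illumina MouseWG-6 v2.0 BeadChips, 1 array per well. The deposited table holds, per probe and array, the average bead intensity, not normalized by the authors between arrays, and the deposited detection p-value, the share of negative control beads that were brighter. Scans were processed with GenomeStudio 2011.01 per the submitters' processing notes. The authors' own spline-normalized values and fold changes were not used.

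Intensities were background corrected from the detection p-values, quantile normalized with an offset of 16 and put on the log2 scale (neqc, limma 3.58.1, R 4.3.3). A probe was kept if all arrays of any group detected it (20880 of 45281 probes), and the brightest probe stood for a gene (14829 genes). Quantile normalization assumes like distributions on all arrays, and bright probes are compressed. Bounds written as at least so many fold use the detection level of the dim arrays. The number of arrays limits the precision. Replicates are wells labelled as biological replicates, with no statement that they came from separate stem cell batches. Fits used 7 co-culture arrays, 9 PA6 arrays, or all 16 for comparisons between cultures, and were tested on simulated data.

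The members, the 14 lists and the tests were chosen with earlier results of these data known. Named were all members, up to 3 called genes a list with the largest change, and the 10 genes most like the members; NEFM and SLC17A6 with BMP4 and MAPT and MYT1L with FGF2 were named after their values were seen. Promoters came from a RefSeq table of GRCm38.p6, while the build behind the array's own annotation is not given in the sources used here. Alternatives covered the normalization, background, filter, probe choice, thresholds, variance prior, blocks and single arrays left out. Python 3 with matplotlib drew the plots.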

Additional observations from a re-analysis of the deposited data

How the results depend on the processing

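All 9 tested members kept their direction in BMP4 against -GFs under each alternative, with medians of -1.51 to -1.88, and of -1.30 to -2.16 with 1 array left out; ELAVL4 moved to -0.56 as the mean of its probes. Both PA6 comparisons stayed at 0 calls. Under the alternatives 9 members were called higher in co-cultures than in PA6 at -GFs and with FGF2, and 7 to 9 with BMP4. The filter largely fixed this direction, so nothing is read from these counts. With 1 array left out the lowest change with BMP4 was 0.19, for CBLN4. With detection required on all 16 arrays no member remained to be tested. For FGF2 against -GFs, 2 members were called with median scaling, no minimum fold change, all 16 arrays in 1 fit or a block for the run of columns in the table (an alternative chosen after seeing the data), and 0 without background correction, without a filter or at an adjusted p under 0.05. With 1 array left out it was 0 to 1. For BMP4 against FGF2 the count was 4 without background correction, 5 in 1 fit of all 16 arrays, with a trended, robust prior or with the column block, 1 at an adjusted p under 0.05, and 0 without a filter. With 1 array left out it was 0 to 5, and where an arm kept 1 array that array was assumed to vary like the others. Median scaling put the median of all genes at -0.21 for FGF2 against -GFs and at 0.29 for BMP4 against FGF2. The near-zero FGF2 change of STMN4 turned to -0.16 with median scaling, -0.046 with the mean of its probes and -0.29 with the column block; it ran from -0.66 to 0.75 with 1 array left out, as STMN2 ran from -0.60 to 0.54, DCX from -0.75 to 0.38 and GAP43 from -1.04 to 0.29. The causes were not tested. The replicate numbers could not be shown to pair the samples: same-numbered arrays deviated together at -0.20 to 0.28 in co-cultures (6 pairs) and at 0.070 to 0.199 in PA6 (9 pairs), and co-culture arrays of the same run of columns at 0.098 to 0.283 (5 pairs). With the replicate number as a block, 2 members were called for FGF2 against -GFs and 0 for BMP4 against FGF2, and STMN4 with FGF2 was at -0.16. A dim probe limits CBLN4 and TMEM130 with BMP4, and leaves TUBB3 unmeasured.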
